A study of Mus musculus with 4 samples.

Results

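The killer cell lectin-like receptor (Klr) genes of the mouse lie on chromosome 6 and encode receptors that natural killer (NK) cells and some T cells use to read self and stress ligands on other cells. Every protein-coding gene on chromosome 6 whose symbol begins with Klr in GENCODE mouse release 21 (build mm10) was taken, which gave 26 genes of 21938 protein-coding genes in the annotation. They comprised 11 Klra, 5 Klrb, 3 Klrc, 1 Klrd, 2 Klrg and 1 Klrk gene, with Klre1, Klri1 and Klri2 as the remaining 3. The main cluster held 24 of them, from Klrb1a to Klra2 at chr6:128609227-131247362, a stretch of 2.64 Mb that also contains 19 other protein-coding genes and 4 Klr pseudogenes. Klrg1 and Klrg2 lie outside it.

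DNase-seq maps chromatin that the nuclease DNase I can reach, by sequencing the ends that it cuts. It was applied here to primary naive resting CD8-positive alpha-beta T cells of female B6CASTF1/J mice, virgin and 2 months old, an F1 hybrid of C57BL/6J and CAST/EiJ. There was 1 group, with 4 libraries numbered as biological replicates 1 to 4, and no treatment or second cell type. The labels give separate biosamples but 1 shared donor identifier, so a p-value over these libraries measures only the spread between them, which may be technical. The coordinates are those of a reference assembly built from C57BL/6J, whereas the cells carry a CAST/EiJ copy of the cluster too. The number of Klra genes is known to vary between mouse strains, and the share of reads from the CAST/EiJ copy that aligned was not tested.

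Klra genes encode the Ly49 receptors, which bind classical MHC class I molecules. Klrb1 genes encode the NKR-P1 receptors, whose ligands, the Clec2 (Clr) proteins, are encoded by genes interspersed among them. Klrd1 encodes CD94, which pairs with a product of Klrc1, Klrc2 or Klrc3 (the NKG2 proteins) to bind Qa-1, encoded by H2-T23. Klrk1 encodes NKG2D, a receptor for stress-induced ligands that signals through the adaptor encoded by Hcst and, in some forms, that encoded by Tyrobp. On CD8 T cells several of these receptors are best known after activation, with Klrg1 used as a marker of effector cells.

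Peak height was the deposited value, scaled to library depth, and was divided here, library by library, by the median over those sites that every library called (relative height). Overlapping peaks of the longer lists were merged into sites, and a consensus site was one called in at least 3 of 4 libraries. The lists held 69413, 70552, 51121 and 20647 peaks in replicates 1 to 4, and whether a peak missing from replicate 4, the sparsest, was missed at its depth or absent was not tested. At the promoter of Cd8a, which defines the labelled cell type, the relative height was 0.498, 0.366, 0 and 0, although Cd8b1 had peaks in all 4 (1.12, 1.43, 1.03 and 0.596). Of 7 CD8 T cell markers, 6 had a consensus promoter site, beside 55.1% of all protein-coding genes. Promoters of 6 B cell genes summed to 1.05, 1.11, 2.71 and 3.12, higher in replicates 3 and 4. Among 11 NK cell genes outside the Klr family, 7 had a consensus promoter site. Prf1, Il2rb, Fcgr3 and Itga2 were called in all 4 libraries (mean relative heights 1.23, 1.14, 0.808 and 0.638), whereas Ncr1 and Cd244a had no peak in any. The summed heights of this list were 5.33, 4.5, 4.88 and 3.56. Of the other lists, 1 of 2 CD4 T cell, 3 of 6 memory or innate-like T cell, 3 of 6 B cell, 4 of 5 myeloid and 2 of 5 dendritic cell genes had one, to be read against the same 55.1%. A lower peak can come from fewer cells with the site open or from less cutting in each cell, and these cannot be told apart in bulk libraries.

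Most Klr promoters lacked a called peak. A consensus site lay within 1 kb of an annotated start of 2 of the 26 genes (7.69%), Klrd1 and Klrb1f, against 55.1% of all 21938 protein-coding genes. No Klr promoter was called in all 4 libraries, against 45.8% of all genes. At the Klrd1 promoter the relative heights were 0.518, 0.375, 0.354 and 0 in replicates 1 to 4 (mean 0.312 ± 0.22, SD, n = 4). At Klrb1f they were 0.124, 0.131, 0.271 and 0 (mean 0.132 ± 0.111, SD, n = 4), and the peak lay at an alternative start within the gene rather than at its 5′ end. The same peak is within 1 kb of the start of Gm44000, an antisense gene. Both promoters were called in the 3 libraries with the longer peak lists and not in replicate 4, which had the shortest. A further 2 genes, Klrg2 and Klra1, had a peak in replicate 1 only, at 0.109 and 0.0822. The remaining 22 had no promoter peak in any library, whereas 60.8% of all genes had one in at least 1.

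Promoters poor in CpG dinucleotides are less often open in any cell, and Klr promoters are poor in CpG. The observed over expected CpG ratio was taken over 500 bp on each side of each gene's 5′ end. A promoter site, by contrast, could lie at any annotated start. The ratio ran from 0 to 0.369 in the 24 genes of the main cluster and reached 0.753 in Klrg2, against a median of 0.552 over all genes. Among the 8335 genes at or below 0.369, 18.1% had a consensus promoter site. In the cluster it was 2 of 24 (8.33%), beside 55.1% of all genes. The Klrb1f site lay at an internal start, not at the 5′ end where its ratio was taken. The part of CpG content in these shares was not tested. The count of 2 promoters rested on library choice. With all 3 of the others required, leaving out replicate 1, 2 or 3 gave 0, beside 45.9%, 45.9% and 45.8% of all genes. Leaving out replicate 4 gave 2, beside 55.0%. Replicate 4 called no Klr promoter, so any rule that required it had to give 0. In the shorter peak lists only Klrd1 remained, beside 51.6% of all genes.

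**Figure D1:**
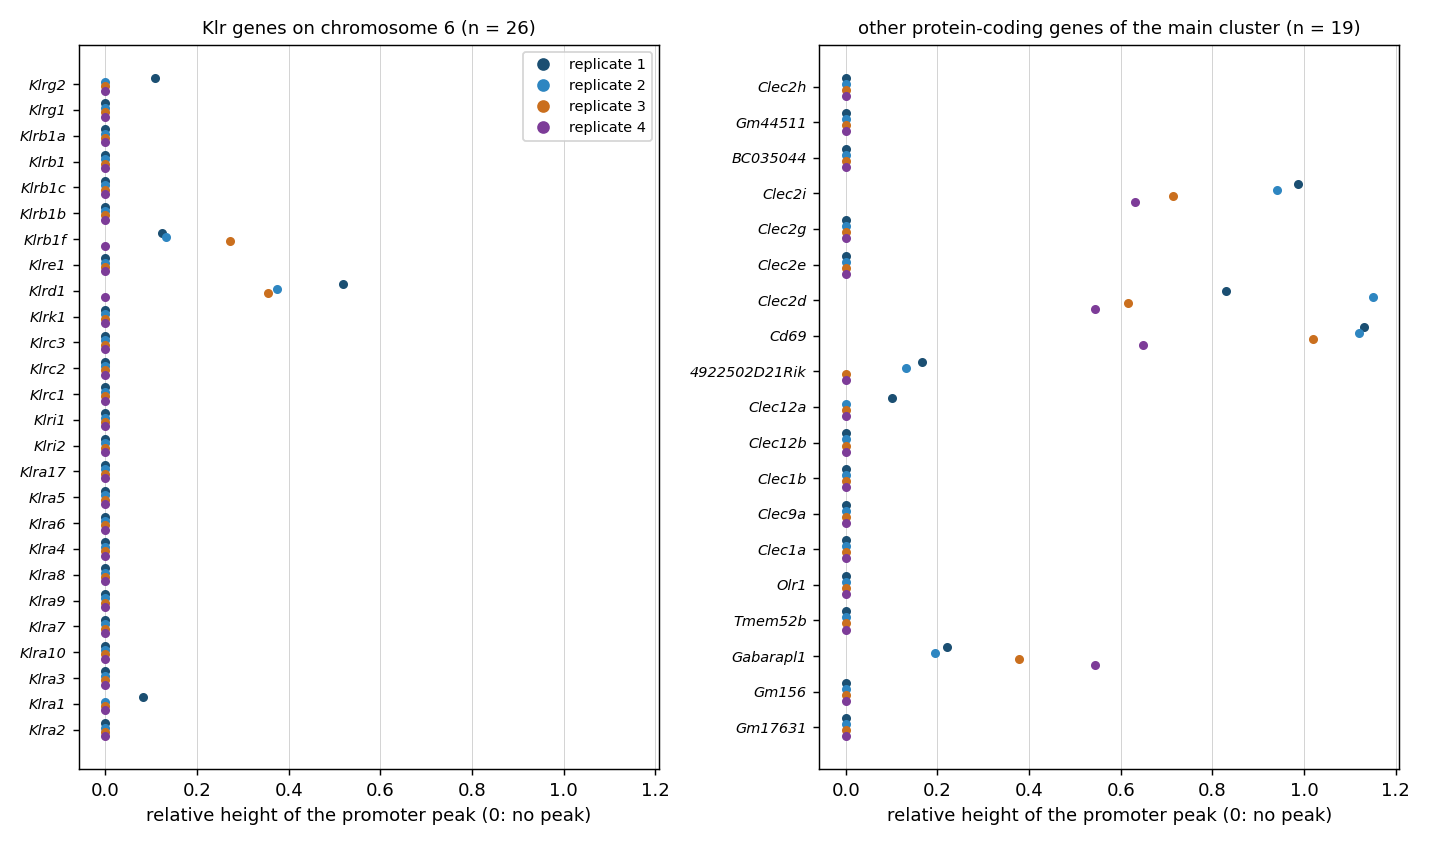
Relative height of the promoter peak (x axis, 0 where no peak was called) for each of the 26 Klr genes (left) and the 19 other protein-coding genes of the main cluster (right), with 1 point per library. Klrd1 and Klrb1f are the only Klr genes with points above 0 in 3 libraries, while Clec2i, Clec2d, Cd69 and Gabarapl1 have points above 0 in all 4.

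Accessible sites were nonetheless frequent in the cluster, away from the Klr starts. It held 126 merged sites, 54 of them consensus sites, with a peak from every library at 24. With peaks of replicates 1 and 2 alone, both required, 78 sites were counted. The 54 amount to 20.5 consensus sites per Mb, compared with 14.3 per Mb in the rest of chromosome 6 and 15.6 per Mb in the genome. Only 12 of the 54 (22.2%) lay within 1 kb of a start of any annotated gene, compared with 46.5% of consensus sites genome-wide. Of the others, 28 were intergenic, 11 intronic and 3 exonic. Of the 77 cluster sites shared by replicates 1 and 2, 70.1% were called in replicate 3 and 31.2% in replicate 4, beside 77.5% and 33.9% of such sites in the genome.

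Peak density in the cluster over that in the rest of chromosome 6 was 1.49, 1.48, 1.32 and 1.53 in replicates 1 to 4 (mean 1.45 ± 0.0911, SD, n = 4). The same ratio for footprints, short stretches protected from cutting within accessible DNA, was 1.56, 1.67, 1.52 and 1.19 (mean 1.48 ± 0.209). For the sequence covered by intervals of raised cut rate it was 1.45, 1.46, 1.25 and 1.33 (mean 1.37 ± 0.101). All 4 libraries were above 1 for all 3 measures. An exact sign-flip permutation test over the 4 libraries (two-sided) gave p = 0.13 for each, also after adjustment over the 3 ratios, which is the smallest value that 4 libraries allow. The ratio averages over unlike blocks: with the stretch from the first to the last Klra gene left out, the means were 2.98 ± 0.193, 3.2 ± 0.452 and 2.91 ± 0.212 for peaks, footprints and cut-rate coverage.

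For description the cluster was divided, after its sites had been seen, into 5 blocks in order along the chromosome. Consensus sites numbered 28 in the Klrb block (62.5 per Mb), 20 in the block of Clec genes and Cd69 (38.4 per Mb), 4 in the block from Klre1 to Klri2 (24.6 per Mb), 2 in the Klra block up to Klra1 (3.09 per Mb) and 0 from Klra1 to Klra2. The order of the first 2 blocks over the rest of chromosome 6 held in every library for peaks: replicate 4, the lowest, had 35.7 peaks per Mb in the Klrb block, 17.3 in the Clec and Cd69 block and 6.46 in the rest of the chromosome. In the same library the block from Klre1 to Klri2 had no peak. Footprints in the Klrb block came to 279, 277, 261 and 53.5 per Mb, and in the rest of the chromosome to 57.2, 50.8, 45.4 and 8 per Mb.

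**Figure D2:**
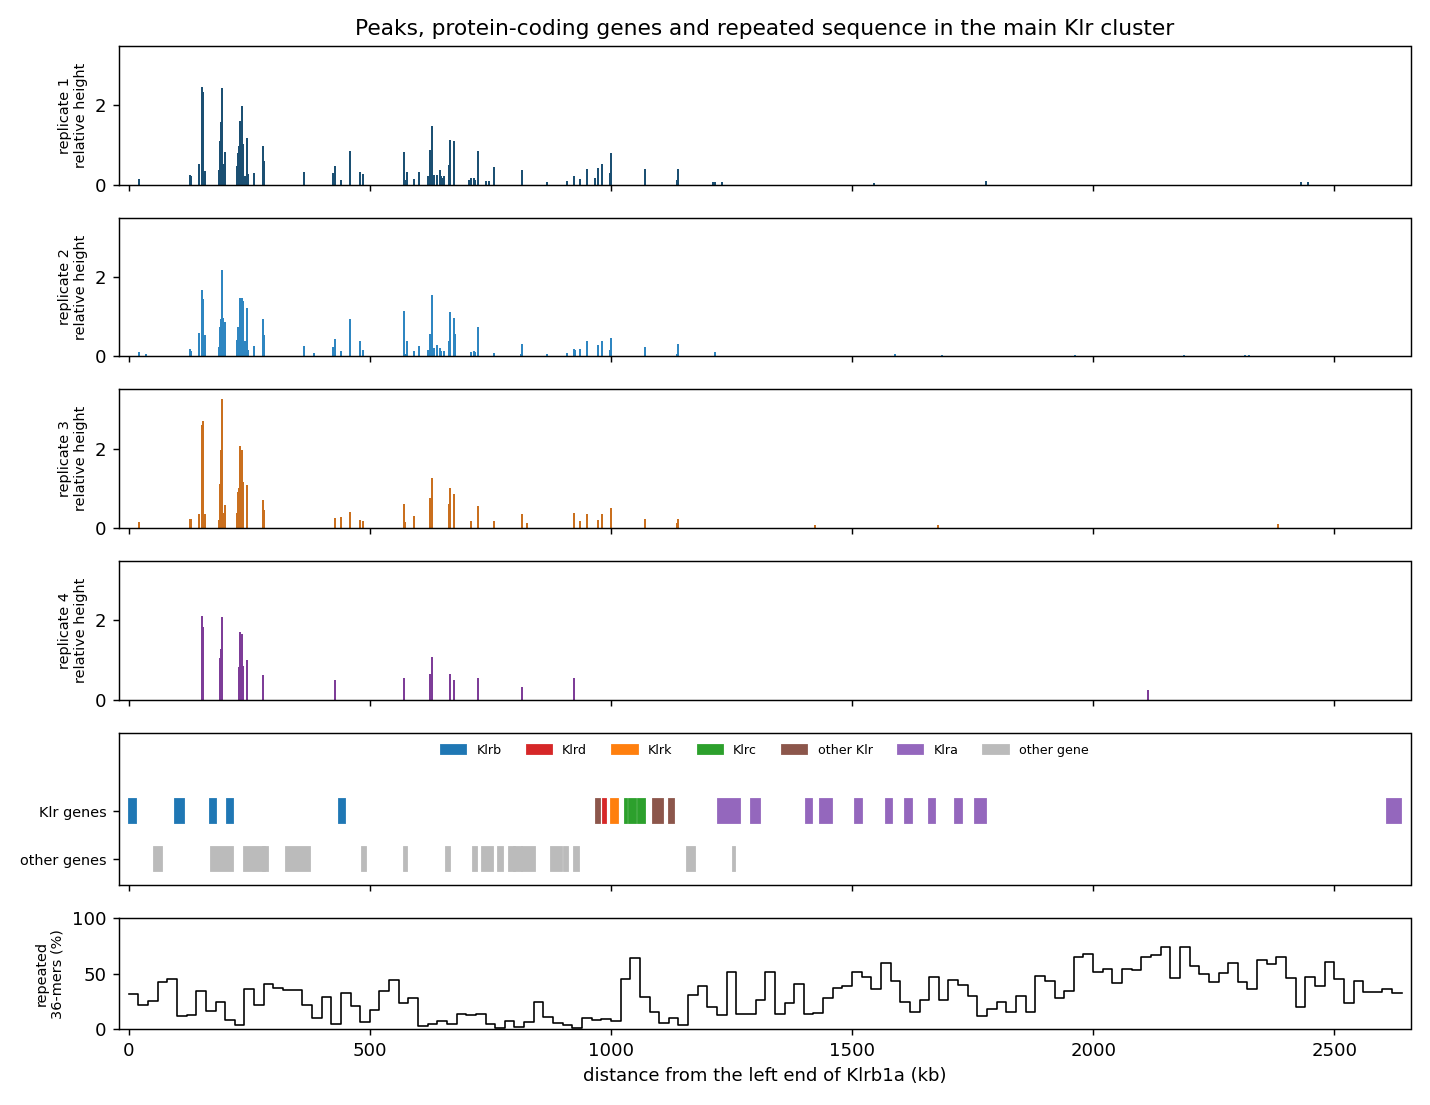
Relative height of every peak in the main cluster in replicates 1 to 4 (top 4 panels), protein-coding genes coloured by Klr subfamily (the fifth panel) and the percentage of 36-base windows that occur more than once in the genome, in 20-kb bins (bottom panel), against distance from the left end of Klrb1a. Tall peaks gather between the Klrb genes on the left in all 4 libraries, and the Klra genes on the right have only scattered low peaks.

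Repeated sequence can limit how many reads are placed, and its share differed along the cluster. Windows of 36 bases that occur more than once in the genome made up 13.5% of the Clec and Cd69 block, 24.7% of the Klrb block, 22.6% of the block from Klre1 to Klri2, 30.3% of the Klra block and 45.5% of the stretch from Klra1 to Klra2, compared with 13.7% of the rest of chromosome 6. Counted over unique windows only, the densities were 44.4, 82.9, 31.8, 4.44 and 0 consensus sites per unique Mb in the same order. The Klra block thus stayed below the other 3 blocks with sites after this scaling, but the part of repeated sequence in its low density was not tested. How the authors' alignment treated reads that match several places is not given in the sources used here.

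**Figure D3:**
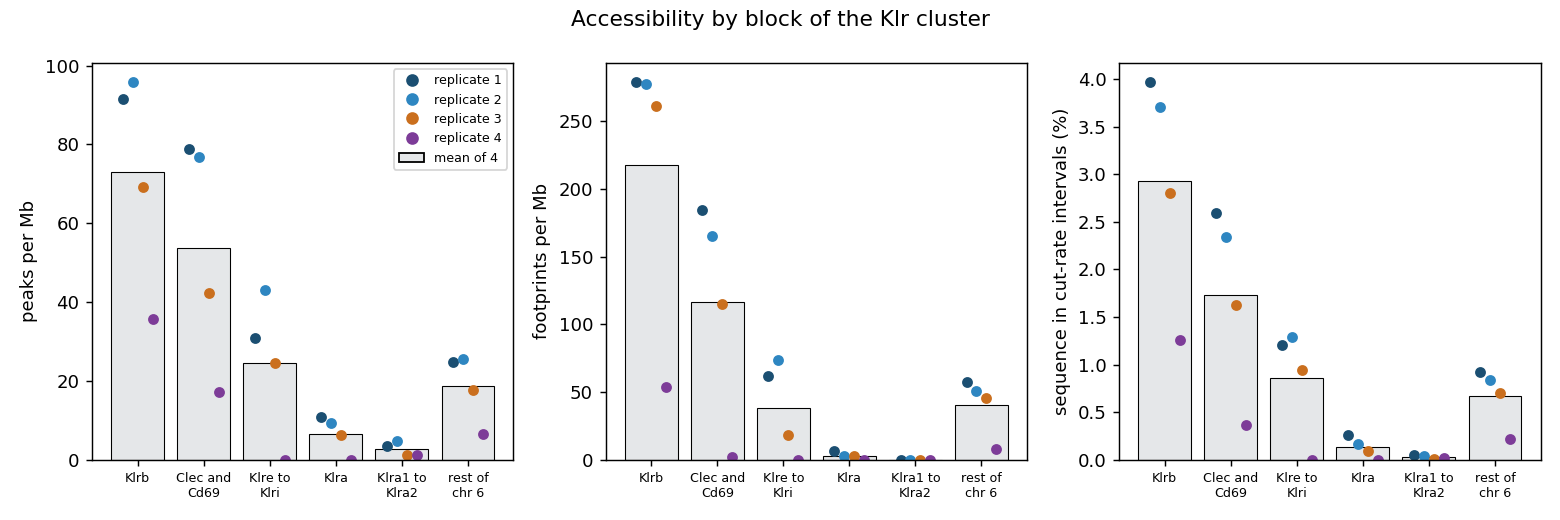
Peaks per Mb (left), footprints per Mb (middle) and the percentage of sequence in cut-rate intervals (right) for the 5 blocks of the cluster and the rest of chromosome 6. Points are the 4 libraries and bars their mean; peaks run from 35.7 to 95.9 per Mb in the Klrb block and from 0 to 10.8 per Mb in the Klra block.

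The 5 Klrb genes, which encode NKR-P1 receptors (Klrb1c encodes NK1.1), mostly lacked promoter peaks but stood beside the densest sites of the cluster. Klrb1a, Klrb1, Klrb1c and Klrb1b had no promoter peak in any library. Within 5 kb of the 5 genes lay 2 consensus sites, and within 25 kb lay 26. Between Klrb1 and Clec2i, 24 consensus sites spread over 151 kb (chr6:128736241-128887660), 14 of them with a peak in every library and 10 with a mean relative height above 1. In the whole cluster 11 of 54 sites passed that level, beside 21.7% of all consensus sites in the genome. Among sites away from any start it was passed by 9 of 42 in the cluster and by 7.4% of 22077 in the genome. Of those 42 sites, 15 had a peak in every library (35.7%), beside 26.2% of the 22077. The densest 100-kb bin of the cluster, from 128800001 to 128900000, held 14 consensus sites, a number reached by 104 of 27268 bins of the genome (0.381%). It was picked as the highest of the cluster's bins, so that share is not a chance rate for it.

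The highest site of the cluster was site 22 (sites are numbered 1 to 126 along the cluster) at chr6:128803021-128803420, in an intron of Gm44511, a predicted gene that spans Klrb1c to Klrb1b, and 14 kb upstream of the Klrb1c start. Its relative height was 2.43, 2.18, 3.26 and 2.09 (mean 2.49 ± 0.532, SD, n = 4), rank 105 among the 22077 consensus sites away from any start. Site 8 at chr6:128760101-128760300, intergenic and 28.3 kb from the Klrb1c start, had 2.46, 1.68, 2.61 and 2.12 (mean 2.22 ± 0.413). Site 10 at chr6:128764121-128764440, also intergenic, had 2.35, 1.44, 2.7 and 1.84 (mean 2.08 ± 0.556). All 3 were above 2 in replicates 1 and 3, and lowest in replicate 2 or 4. The next 5 in the stretch were site 36 (1.77 ± 0.25), site 33 (1.65 ± 0.211), site 34 (1.6 ± 0.327), site 21 (1.44 ± 0.429) and site 9 (1.38 ± 0.391), and site 40, in an intron of BC035044, followed at 1.12 ± 0.1. Each of these was called in all 4 libraries, and none lay within 1 kb of a Klr start.

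Over the 14 sites called in all 4 libraries, the median relative height was 1.48, 1.3, 1.9 and 1.23 in replicates 1 to 4. Replicate 3 was the highest library at 9 of the 14, and replicate 2 or 4 was the lowest at all of them (9 and 5 sites). At the other 10 cluster sites called in all 4, the medians were 0.838, 0.67, 0.682 and 0.544, with replicate 1 the highest. The B cell marker sum was 2.71 in replicate 3 and 3.12 in replicate 4, of which the first had the highest and the second the lowest median over these 14 sites. The part of other cell types in these heights was not tested.

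Several of these sites were copies of one another. Comparing the 54 consensus sites by blastn, 14 had a match in another. Site 8 and site 19, 38.6 kb apart, were 95.5% identical over 201 bp. Site 9 and site 21 were 95.5% identical over 200 bp, site 10 and site 22 90.3% over 308 bp, and site 13 and site 25 96.6% over 176 bp. The 4 pairs lie in the same order and orientation and 37.9 to 38.6 kb apart, 1 copy on each side of Klrb1c. Site 1 lies outside the stretch between Klrb1 and Clec2i, 6.72 kb upstream of Klrb1a. It was 96.7% identical over 211 bp to site 7, within the stretch and 31 kb upstream of Klrb1. A shorter element of 81 to 101 bp was shared by sites 10, 21, 22, 32 and 36, in the opposite orientation at sites 32 and 36. Single 36-base windows occurred up to 105 times in the genome at sites 10, 22, 32 and 36. The highest count was 10 at site 21 and 211 at sites 8 and 19. Whether the most repeated windows lie in the shared element was not tested, so it is not shown to be particular to the cluster. The first 3 pairs are given to show the copies side by side, from mm10, plus strand, with bases that lie in footprints of at least 2 libraries in capitals. They span chr6:128764131-128764430 (site 10), chr6:128803071-128803370 (site 22), chr6:128760101-128760300 (site 8), chr6:128798881-128799100 (site 19), chr6:128760881-128761080 (site 9) and chr6:128799491-128799790 (site 21), the central 300 bases of sites longer than that.
site 10: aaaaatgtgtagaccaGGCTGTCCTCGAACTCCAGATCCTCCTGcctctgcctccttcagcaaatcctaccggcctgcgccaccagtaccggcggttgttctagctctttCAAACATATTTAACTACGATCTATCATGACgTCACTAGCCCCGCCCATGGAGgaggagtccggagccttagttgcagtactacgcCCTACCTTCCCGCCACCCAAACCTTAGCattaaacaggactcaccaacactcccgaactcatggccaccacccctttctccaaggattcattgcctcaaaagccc
site 22: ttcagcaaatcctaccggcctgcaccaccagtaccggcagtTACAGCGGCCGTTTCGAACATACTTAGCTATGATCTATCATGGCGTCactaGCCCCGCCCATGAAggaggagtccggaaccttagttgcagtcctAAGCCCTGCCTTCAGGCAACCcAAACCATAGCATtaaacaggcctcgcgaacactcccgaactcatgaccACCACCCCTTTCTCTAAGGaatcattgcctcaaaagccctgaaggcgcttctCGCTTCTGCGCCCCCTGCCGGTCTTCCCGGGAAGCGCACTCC
site 8: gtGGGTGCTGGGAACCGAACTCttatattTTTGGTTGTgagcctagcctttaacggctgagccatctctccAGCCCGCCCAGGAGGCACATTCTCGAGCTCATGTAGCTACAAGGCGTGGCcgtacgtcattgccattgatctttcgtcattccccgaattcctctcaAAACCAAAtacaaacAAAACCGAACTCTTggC
site 19: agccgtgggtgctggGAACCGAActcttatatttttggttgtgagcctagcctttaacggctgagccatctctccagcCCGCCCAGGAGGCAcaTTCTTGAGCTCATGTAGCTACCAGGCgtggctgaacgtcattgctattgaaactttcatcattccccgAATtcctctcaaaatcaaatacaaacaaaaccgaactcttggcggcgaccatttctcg
site 9: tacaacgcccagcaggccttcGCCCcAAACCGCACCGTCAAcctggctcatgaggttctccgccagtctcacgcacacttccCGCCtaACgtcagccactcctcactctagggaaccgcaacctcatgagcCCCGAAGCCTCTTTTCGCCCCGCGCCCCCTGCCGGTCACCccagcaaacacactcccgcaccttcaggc
site 21: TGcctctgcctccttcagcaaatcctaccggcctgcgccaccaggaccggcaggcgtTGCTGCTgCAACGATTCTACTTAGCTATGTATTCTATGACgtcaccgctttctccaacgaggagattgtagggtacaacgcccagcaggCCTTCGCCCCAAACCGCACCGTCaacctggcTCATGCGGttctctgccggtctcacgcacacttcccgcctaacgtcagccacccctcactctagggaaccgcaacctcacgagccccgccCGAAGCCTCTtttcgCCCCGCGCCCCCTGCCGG

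Footprints fell largely at matching places in these copies, apart from sites 1 and 7. Of 305 aligned bases of sites 10 and 22, 107 and 140 lay in footprints of at least 2 libraries, and 97 aligned bases were covered in both, 90.7% of the smaller set. For sites 8 and 19 the counts were 102, 51 and 48 shared (94.1%), for sites 9 and 21 they were 65, 64 and 50 (78.1%), and for sites 13 and 25 they were 72, 63 and 54 (85.7%). Sites 1 and 7 shared 0, with 8 and 53 covered bases. In the other pairs footprints covered 25.5% to 51% of the aligned bases of each site. The overlap to be had from that coverage alone was not computed. The relative heights of the copies were not always alike. Site 8 (1.68 to 2.61) lay above site 19 (0.728 to 1.11) with no overlap. Site 22 (2.09 to 3.26) lay above site 10 (1.44 to 2.7) in every library, but the ranges overlapped. Site 25 lay above site 13 in replicates 1 to 3, and neither was called in replicate 4. Sites 9 and 21 ranged alike, from 1.05 to 1.93 and from 0.95 to 1.96. Repeated 36-base windows made up 13.8 to 45.9% of these 8 sites, and reads from 1 copy placed on the other were not tested for.

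**Figure D4:**
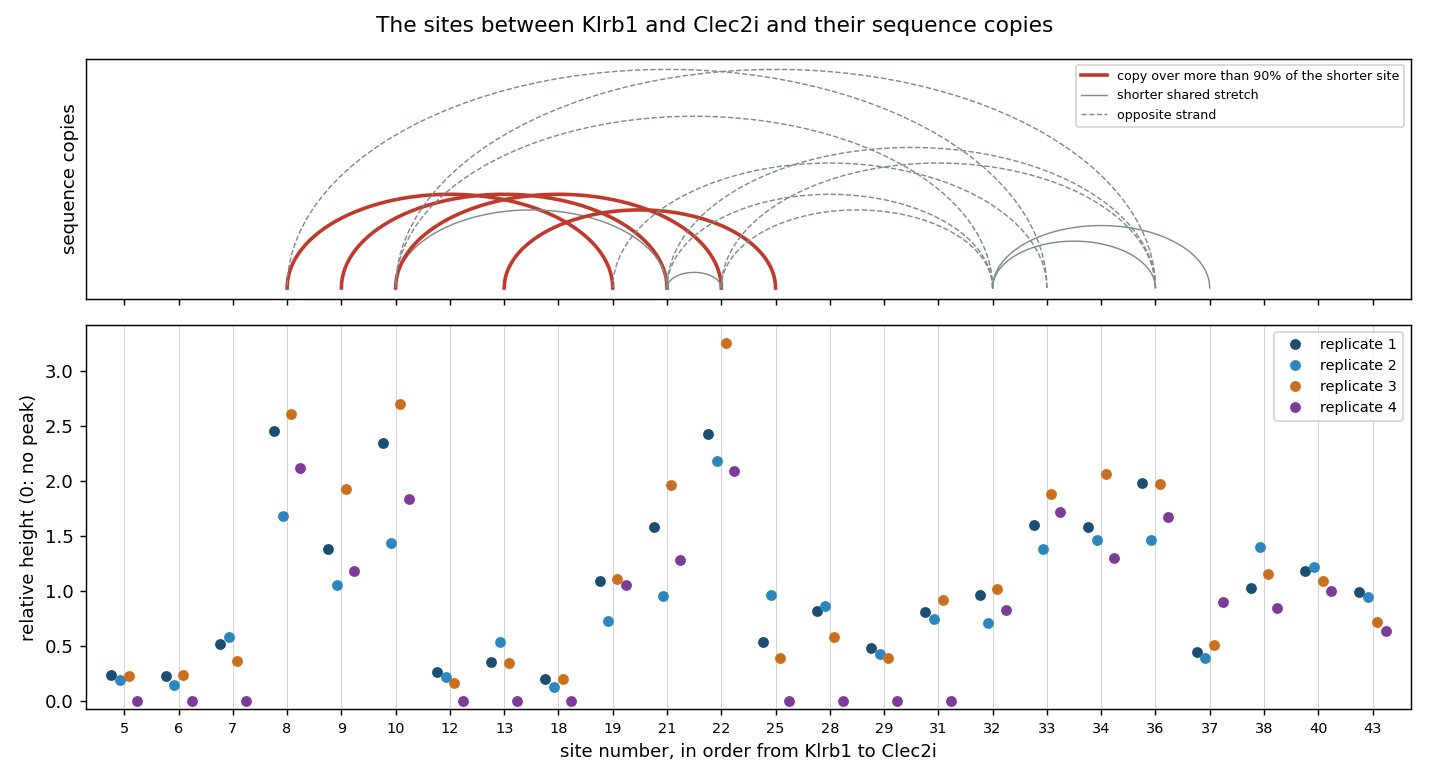
The 24 consensus sites between Klrb1 and Clec2i in order, with arcs joining sites that share sequence (top; thick red arcs join copies over more than 90% of the shorter site, dashed arcs the opposite strand) and relative height in each library (bottom, 0 where no peak was called). Sites 22, 8 and 10 have the highest means, and site 22 reaches 3.26 in replicate 3.

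The block that encodes CD94, NKG2D and the NKG2 proteins held 4 consensus sites, each called in replicates 1 to 3 and not in replicate 4. Of their mean relative heights, 3 were below and 1 above the median of 0.349 over consensus sites in the genome. Site 102 covered the Klrd1 promoter (chr6:129591561-129591880). Site 104 (chr6:129608401-129608720), between Klrd1 and Klrk1 and 1.76 kb beyond the Klrk1 3′ end, was the highest, at 0.807, 0.451, 0.512 and 0 (mean 0.443 ± 0.333, SD, n = 4). Site 100, in an intron of Klre1 and 3.61 kb from its 5′ end, had 0.42, 0.297, 0.192 and 0. Site 106, intergenic and 1.65 kb upstream of the Klrc1 start, had 0.407, 0.238, 0.216 and 0. Replicate 1 was the highest library at all 4 sites.

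The receptors themselves differed within the block. Klrk1 (NKG2D) had no peak at any of its 6 starts in any library, although site 104 and 2 other merged sites lay within 5 kb of the gene. Klrc1 (NKG2A) had site 106 as its nearest. Klrc2 and Klrc3 had no peak within 5 kb of either gene in any library, but 82.9% and 83.3% of the 36-base windows of their promoters were repeated, compared with 0% at Klrc1 and 0% at Klrk1. Klri1 and Klri2, whose products pair with that of Klre1, had no peak within 5 kb, and 10.3% and 8.37% of their windows were repeated. Extending the promoter window to 2.5 kb brought the count of Klr genes with a consensus promoter site to 4, by adding Klre1 and Klrc1. The share of all genes at that width is not given here.

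All 4 sites of this block held the RUNX letters TGTGGT in their central 150 bp, and 3 of the 4 (sites 102, 104 and 106) also held the AP-1 letters TGANTCA. Among the genome's consensus sites away from any start, 19.7% held the first, 5.02% the second and 1.17% both. In the cluster 4 of 54 sites held both (7.41%), the other being site 37 of the Klrb block. The ETS letters AGGAAG were found at sites 102 and 106, the T-box letters GGTGTGA at site 104, where they overlap the AP-1 match, and the TCF/LEF letters CTTTGAA at site 106. This was noticed after the sites had been seen, and a match is a description of the sequence only. The sequences are shown for these matches, from mm10, plus strand, with the matched letters of either strand within the central 150 bp in capitals. They span chr6:129581421-129581600 (site 100), chr6:129591571-129591781 (site 102, up to the annotated transcript start), chr6:129608411-129608710 (site 104, its central 300 bases) and chr6:129680501-129680740 (site 106).
site 100: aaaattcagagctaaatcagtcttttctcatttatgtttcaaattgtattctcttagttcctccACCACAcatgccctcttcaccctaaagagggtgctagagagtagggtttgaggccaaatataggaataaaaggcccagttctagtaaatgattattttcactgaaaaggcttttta
site 102: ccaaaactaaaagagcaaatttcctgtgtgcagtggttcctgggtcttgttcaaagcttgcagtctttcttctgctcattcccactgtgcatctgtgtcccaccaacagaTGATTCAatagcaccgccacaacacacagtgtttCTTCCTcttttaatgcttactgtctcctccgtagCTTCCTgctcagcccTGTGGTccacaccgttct
site 104: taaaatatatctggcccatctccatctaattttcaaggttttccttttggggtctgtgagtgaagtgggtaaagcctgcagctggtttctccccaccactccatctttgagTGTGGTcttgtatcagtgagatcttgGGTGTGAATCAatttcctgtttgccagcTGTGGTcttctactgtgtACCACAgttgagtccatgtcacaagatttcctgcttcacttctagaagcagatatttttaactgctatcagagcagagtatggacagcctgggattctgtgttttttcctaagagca
site 106: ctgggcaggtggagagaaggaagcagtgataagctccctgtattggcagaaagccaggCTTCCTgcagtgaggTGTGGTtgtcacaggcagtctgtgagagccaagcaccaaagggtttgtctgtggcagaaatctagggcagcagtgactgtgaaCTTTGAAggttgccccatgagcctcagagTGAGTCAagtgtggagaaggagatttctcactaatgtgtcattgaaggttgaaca

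In the cluster as a whole the RUNX letters were in 16 of 54 sites (29.6%), compared with 19.7% of consensus sites away from starts and 14.3% of all 41228 consensus sites. For ETS the count was 12 (22.2%, compared with 27.2% and 23.7%), for AP-1 4 (7.41%, compared with 5.02% and 3.8%) and for T-box 2 (3.7%, compared with 2.65% and 2.17%). The NFAT letters TGGAAAA were in none, and in 2.61% and 2.17% of the comparison sites. The GATA letters AGATAA were in 2. Of the 24 sites between Klrb1 and Clec2i, 6 held RUNX (25%) and 3 held ETS (12.5%). The CTCF letters AGGGGGC were in 3, at sites 5, 9 and 40, which is 12.5% of these 24 and compares with 13.1% and 12%; no other site of the cluster held them.

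The 11 Klra genes, which encode the Ly49 receptors, had no consensus site and no footprint in any library within 5 kb, and no consensus site within 25 kb. From Klra17 to Klra2, 15 merged sites were called, each in 1 library only: 5, 6, 3 and 1 in replicates 1 to 4. The highest had a relative height of 0.246, in replicate 4. The Klra1 promoter peak of 0.0822 in replicate 1 was one of them. The last consensus site before the genes, site 108, lay 6.99 kb upstream of Klri2 at 0.393, 0.309, 0.23 and 0. From there to the next consensus site stretched 1546 kb (chr6:129747581-131293120), and 274 of 41207 stretches between neighbouring consensus sites in the genome are at least as long, with a median of 13.2 kb.

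Repeated sequence was unequal among the Klra genes. Repeated 36-base windows made up 54.7% of the Klra9 gene with 5 kb on each side, 52.3% for Klra8, 49.6% for Klra10 and 46% for Klra3, but 14.6% for Klra6, 17.7% for Klra1 and 18.9% for Klra5. At the promoters they made up 6.05% for Klra6 and 6.61% for Klra7, and 50.8% for Klra8. None of these had a consensus site within 5 kb, and the part of repeated sequence in that was not tested. Cut-rate intervals covered 0.0561%, 0.0225%, 0.00989% and 0% of the Klra intervals in replicates 1 to 4, compared with 0.925%, 0.841%, 0.706% and 0.219% of the rest of chromosome 6.

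Set side by side over gene bodies with 5 kb on each side, the subfamilies held 0 consensus sites for Klra (11 genes), 2 for Klrb (5), 1 for Klrc (3), 1 for Klrd (1), 0 for Klrg (2), 1 for Klrk (1) and 1 for the other 3. With 25 kb on each side the counts became 0, 26, 1, 3, 3, 2 and 7. Going from 5 to 25 kb thus added sites at every subfamily other than Klra and Klrc, but wider intervals take in more sequence. Neighbouring subfamilies share sites at 25 kb, so those counts are not separate. In the same order, the densities within 5 kb were 0, 17.2, 20, 58.8, 0, 42.5 and 14.4 consensus sites per Mb. Within 25 kb they were 0, 89.4, 11.1, 52.6, 24.2, 31.5 and 46.3, beside 15.6 in the genome. Gene bodies alone held 0 for Klra, 1 for Klrb, 0 for Klrc, 1 for Klrd, 0 for Klrg, 0 for Klrk and 1 for the others. Footprints within 5 kb numbered 1, 2, 7 and 0 at the Klrb genes, 2, 3, 0 and 0 at Klrd1, 4, 2, 3 and 0 at Klrk1, and 0 in every library at the Klrg genes.

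Klrg1 (chr6:122270596-122282882), whose product binds cadherins, had no promoter peak and no site within 5 kb. The nearest site called in all 4 libraries, at chr6:122304401-122304580, was 21.6 kb upstream, with relative heights of 0.731, 1.08, 0.876 and 0.684, and lies closer to the start of M6pr (4.23 kb). Klrg2 (chr6:38625693-38637242), with the highest promoter CpG ratio of the family, had its 1 promoter peak in replicate 1 and a consensus site 13.5 kb upstream at 0.313, 0.339, 0.251 and 0. That site is nearer to a start of Clec2l.

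Of the 19 other protein-coding genes inside the cluster, 4 had a consensus promoter site (21.1%), beside 55.1% of all genes. All 4 were called in every library, beside 45.8% of all genes for that requirement. The promoter of Clec2d, which encodes the NKR-P1 ligand Clr-b, had relative heights of 0.829, 1.15, 0.615 and 0.544. Clec2i, which encodes Clr-g, had 0.987, 0.941, 0.715 and 0.632. Cd69, an early activation antigen of lymphocytes, had 1.13, 1.12, 1.02 and 0.649. Gabarapl1, an autophagy gene, had 0.222, 0.196, 0.378 and 0.544. The Clec2e, Clec2g and Clec2h promoters had no peak in any library. Clec2d and Clec2i were thus the Clec2 genes of the cluster with open promoters, both higher in replicates 1 and 2 than in 3 and 4, whereas Gabarapl1 was highest in replicate 4. The gene bodies with most consensus sites within 5 kb were Gm44511 with 6 and BC035044 with 4, both of which overlap the stretch between Klrb1 and Clec2i.

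Beyond Cd69 itself, site 66 (chr6:129237901-129238180), at a start of the noncoding gene 2310001H17Rik and 37.3 kb from the Cd69 start, had 1.48, 1.55, 1.25 and 1.07 (mean 1.34 ± 0.221, SD, n = 4). It was the only one of the cluster's 10 highest sites outside the stretch between Klrb1 and Clec2i, and it had no sequence copy among the 54.

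Genes for the partners of these receptors were counted in 4 short lists, to be read against the 55.1% of all genes. The ligand genes (8 of 17) lay a little below that share and the other 3 lists above it. These differences were not tested. Of 9 signalling adaptors and kinases, 7 had a consensus promoter site (77.8%), beside 55.1% of all genes. The highest were Grb2 (2.65, 2.7, 2.51 and 2.61), Pik3r1 (1.7, 1.74, 1.45 and 1.75), Lck (1.11, 0.823, 1.09 and 0.965) and Vav1 (0.487, 0.583, 0.759 and 1), while Fcer1g had no peak. Hcst, the NKG2D adaptor gene, had 0.444, 0.263, 0.443 and 0, and Tyrobp had a peak in replicate 3 only, at 0.241. All 3 inhibitory phosphatase genes, through which the inhibitory receptors act, had a consensus promoter site: Ptpn6, Ptpn11 and Inpp5d. Of 17 ligand genes found in the annotation, 8 had one (47.1%), led by H2-D1 (6.23, 7.67, 5.36 and 4.54), B2m (2.48, 2.84, 2.27 and 2.23), H2-K1 (2.48, 2.63, 2.41 and 2.28) and Clec2i among those called in all 4 libraries. Of the genes listed as encoding cadherin ligands of the Klrg1 product, Cdh1 had a consensus promoter site, at 0.213, 0.196, 0.261 and 0. Cdh2 and Cdh4 had no peak. H2-T23, which encodes the CD94-NKG2 ligand, had 0.531, 0.802, 0.612 and 0. Of 10 genes for transcription factors known to act at NK receptor genes, 9 had one (90%), led among those called in all 4 libraries by Ets1 (2.34, 2.61, 2.66 and 2.96), Id2 (1.77, 1.67, 1.99 and 1.84), Runx3 (1.95, 2.02, 1.49 and 1.4) and Tox (0.731, 0.554, 0.68 and 0.632). Bcl11b, without a peak in replicate 4, had 1.22, 1.57, 0.911 and 0. The Tbx21 promoter was low, at 0.187, 0.171, 0.227 and 0, and that of Eomes was at 0.513, 0.326, 0.409 and 0. The median relative promoter height was 0.516 for adaptors and kinases, 0.553 for phosphatases, 0.0281 for ligands and 0.647 for transcription factors, compared with 0 for the 26 Klr genes and 0.221 over all genes.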

How the data were processed

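DNase-seq peaks, footprints and cut-rate intervals of 4 libraries were used as deposited, on mm10 per the labels. The peak value is a signal, deposited by the authors as a height scaled to library depth. The deposited footprint and cut-rate values are p-values or q-values: 0.01 for every footprint, and below 0.05 for every cut-rate interval. Which aligner and callers were used is not given in the sources used here. These lists give no read counts, so no counting interval is printed.

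Peaks of the longer list of each library were merged at 1 bp of overlap. Promoters were within 1 kb of any start in GENCODE mouse release 21, and gene intervals had 5 kb on each side. The main cluster was the longest run of Klr genes with gaps under 1 Mb. Repeated windows were 36-base windows found more than once in the GRCm38 sequence, on either strand. Copies among sites were found with blastn 2.17.0 (e-value 1e-20). Motifs were searched on both strands in the central 150 bp. Computations used Python 3.11.15, numpy 2.4.6, pandas 2.3.3 and matplotlib 3.10.9, and the steps were checked on simulated data.

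The members, lists and motifs were chosen with earlier results of these data known. Named were all Klr genes, other cluster genes with a consensus promoter site or among the 6 with most sites, the 10 highest cluster sites, consensus sites at Klr starts, and from each list up to 4 of the highest promoters called in all 4 libraries and up to 4 called in none. Hcst, Tyrobp, H2-T23, Cdh1, Tbx21, Eomes, Bcl11b, Ptpn6, Inpp5d and the Cd8 and B cell genes were added by role after their values were seen. So were the sites near Klrg genes, paired sites and the other sites from Klre1 to Klri2. Of 21 ligands and 12 NK cell genes listed, 17 and 11 were found as protein-coding genes. Alternatives were other peak lists, library requirements, overlaps and windows, each library left out, and, chosen after seeing the data, a cluster ending at Klra1 and replicates 1 and 2 only for the ratios.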

Additional observations from a re-analysis of the deposited data

Results flagged for a closer look

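At 3 promoters 1 library stood apart from the other 3, with its gap to the nearest of them as large as the whole range. All were low peaks called in replicate 1 and absent from replicates 2 to 4. The relative height was 0.109 at Klrg2, 0.0822 at Klra1 and 0.102 at Clec12a, a myeloid lectin gene of the Clec and Cd69 block. In this way 23 results were examined. A value called in 1 library and 0 in the other 3 always meets this rule. These flags therefore only restate that 1 library called the peak, and the usual chance rate of about 1 in 20 groups does not apply to them.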

How the results depend on the processing

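The count of Klr promoters with a consensus site was 2 and moved under several settings. It was 1 in the shorter peak lists (51.6% of all genes) and 0 with all 4 libraries required (45.8%). It was 1 at the 5′ end only and 4 within 2.5 kb, settings for which the share of all genes is not given. Leaving out each replicate gave 0 to 2, beside 45.8% to 55.0% of all genes. The count of consensus sites in the cluster was 54. It fell to 24 with all 4 libraries required, ranged from 24 to 54 when each replicate was left out, and was 78 in replicates 1 and 2. The 3 density ratios stayed above 1 under all alternatives run, with mean log2 ratios of 0.40 to 1.57 for peaks, 0.35 to 1.67 for footprints and 0.28 to 1.54 for cut-rate coverage, beside 0.54, 0.56 and 0.45. The highest value in each came from leaving out the Klra stretch. A cluster ending at Klra1, an alternative chosen after seeing the data, gave 1.06, 1.13 and 1.01. Dividing heights by the median of all peaks instead multiplied the 20 relative heights checked by 2.76 to 4.58. Windows of 50 bases lowered the repeated share in every block, to 20.6% in the Klra block. No paired analysis was possible because the libraries form 1 group. The short peak list of replicate 4 limits each statement that rests on all 4 libraries.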
